A study of Mus musculus with 61 samples.

Results

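The genes described here encode the cascade that carries dopamine and adenosine signals from receptor to phosphatase in striatal neurons. The 9 genes, Gnal, Gng7, Ppp1r1b, Arpp19, Arpp21, Prkar1b, Prkar2b, Prkaca and Prkacb, were chosen by name for this cascade and taken from the count table by matching their Ensembl identifiers to symbols, and all 9 were found among 55401 identifiers. RNA of nuclei sorted by green fluorescence from the nucleus accumbens, a ventral striatal region of reward circuits, was sequenced in 61 libraries. All mice were male and carried LSL-eGFP::L10a, a reporter that stays silent until Cre recombinase switches it on, together with either D2-Cre or D1-Cre, so each driver decides which neurons glow. Mice received daily injections over 15 days, stayed in the home cage for 30 days and were killed 1 h after a challenge injection. The first letter of a group gives the daily drug and the second the challenge, with M for morphine and S for saline. With D2-Cre there were 7 MM, 8 MS, 7 SM and 7 SS libraries, and with D1-Cre there were 7 MM, 9 MS, 8 SM and 8 SS libraries. The labels list 20 and 10 mg/kg without tying either to a mouse and speak of another drug's cohort in the same passage, so no value below refers to a dose. They do not say whether mice were pooled or ages differed, and p-values therefore measure the spread between libraries.

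Golf, the stimulatory G protein of the striatum, is built around the alpha subunit from Gnal and the gamma subunit from Gng7, and couples the D1 dopamine receptor and the striatal adenosine receptor to adenylyl cyclase. The cyclic AMP it produces binds the regulatory subunits of protein kinase A (PKA), which then release the catalytic subunits. DARPP-32, the product of Ppp1r1b, is a PKA substrate highly enriched in medium spiny neurons and turns into an inhibitor of protein phosphatase 1 once phosphorylated.

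The sites on which this switch rests are shown as coding sequence of the GENCODE M21 transcripts on GRCm38, 5′ to 3′, because the products of Ppp1r1b and Arpp19 act on phosphatases and PKA once these residues are phosphorylated. The codon of each residue is in capitals, with 8 codons on each side in lower case, and the coordinates span the stretch on the plus strand, introns included. Codon 34 of Ppp1r1b, whose protein has 194 residues, encodes the threonine phosphorylated by PKA (chr11:98349169-98350613).
Ppp1r1b codon 34: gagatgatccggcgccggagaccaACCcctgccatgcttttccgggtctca
Codon 75 of the same gene encodes the threonine phosphorylated by the kinase Cdk5, which makes DARPP-32 an inhibitor of PKA (chr11:98351299-98355334).
Ppp1r1b codon 75: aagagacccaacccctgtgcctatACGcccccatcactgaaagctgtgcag
Codon 62 of Arpp19, whose protein has 112 residues, encodes the serine that the kinase Greatwall phosphorylates to turn ARPP-19 into an inhibitor of protein phosphatase 2A (chr9:75052347-75056676).
Arpp19 codon 62: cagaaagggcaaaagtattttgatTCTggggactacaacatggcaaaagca
Arpp21 also holds a microRNA gene, Mir128-2, on its own strand. Its mature product follows with the seed, bases 2 to 8, in capitals, from RefSeq on GRCm38.p6 (chr9:112118644-112118664, minus strand). That host gene had the most counts of the 9.
mmu-miR-128-3p: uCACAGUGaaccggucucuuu

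The promoters of the 9 genes were searched for the cyclic AMP response element, the site bound by the PKA target CREB. Whether such sites bear on the levels described below was not tested. RefSeq windows on GRCm38.p6, from 250 bases before to 50 bases after a transcription start, matched 7 of the 9 genes, with 25 windows in all. The full palindrome TGACGTCA lay in 0 of these 25 windows and in 1.79% of 32851 windows of all genes. The core TGACG, on either strand and also part of that palindrome, lay in 7 of 25 windows, or 28%, and in 20.8% of all windows. Windows of the same gene can overlap, and the same Arpp21 site was counted again in an overlapping window. The windows are thus not separate observations, and the difference between these shares was not tested. Those 7 windows belonged to 5 genes. The catalytic subunit genes are shown for the 250 bases before their start, with the core, here on the opposite strand, in capitals, first Prkacb (chr3:146812947-146813196, minus strand) and then Prkaca (chr8:83972728-83972977, plus strand).
Prkacb promoter: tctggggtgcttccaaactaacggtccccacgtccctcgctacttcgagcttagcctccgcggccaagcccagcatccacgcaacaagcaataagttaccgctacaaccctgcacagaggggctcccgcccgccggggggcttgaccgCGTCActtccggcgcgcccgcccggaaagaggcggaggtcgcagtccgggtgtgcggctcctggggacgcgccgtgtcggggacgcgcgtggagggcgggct
Prkaca promoter: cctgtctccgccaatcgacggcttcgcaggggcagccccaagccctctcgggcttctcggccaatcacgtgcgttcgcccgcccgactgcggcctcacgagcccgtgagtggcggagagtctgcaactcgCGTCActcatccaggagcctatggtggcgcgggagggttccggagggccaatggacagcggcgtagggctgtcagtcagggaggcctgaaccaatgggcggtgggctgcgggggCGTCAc

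Total counts ran from 11518606 to 26108954 per library, with a median of 17924400. A background density was taken in each library from 1435 receptor genes of the olfactory and vomeronasal families, as these belong to the nose. Spread over all genes by length, that background would make up 7.46% to 86.3% of a library's counts. D1 SS replicate 1 held the lowest share, the next lowest being 33.1%, and its scaling factor was 0.388 against a next lowest of 0.811. Comparisons that include it are given with and without it. The sort matched the labels, with Drd2 above all 32 D1 libraries in 29 of 29 D2 libraries in CPM, counts scaled to a common library total. Drd1 ran from 6.08 to 22.4 CPM in D2 libraries and from 29.7 to 134.3 in D1 libraries.

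All 9 genes were measured well enough to pass the filter on low counts in every fit, with median counts per library between 583 for Arpp19 and 5853 for Arpp21. Levels of different genes are compared only per kilobase of gene span, introns included, the length behind the deposited FPKM values. On that scale Ppp1r1b led with a median of 6.45 CPM per kb over the 61 libraries, and it lay above Gng7, the next, in 61 of 61. Gng7 had a median of 2.88 and lay above Gnal in 57 of 61 libraries. Gnal at 2.09 and Arpp21 at 2.01 were close, with Gnal higher in 39 of 61. The PKA subunits and Arpp19 followed, with medians from 1.16 to 1.40. Arpp19 lay above Prkacb in 52 of 61, while the other neighbours among these 5 changed places from library to library, as with Prkaca at 1.40 and Arpp19 at 1.39, where Prkaca was higher in 29 of 61. Prkar1b at 1.18 and Prkar2b at 1.16 traded places too, with Prkar1b higher in 31 of 61. The order hangs on the length used. Per kilobase of exon Gng7 came first at 50.5 CPM per kb, followed by Prkar1b at 41.0 and Prkar2b at 32.7, while Ppp1r1b stood behind Gnal, at 20.7.

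Against the background density of its own library, Ppp1r1b stood highest, at a median of 12.9 times background over the D2 libraries and 14.9 times over the D1 libraries. Gng7 had medians of 5.88 times in D2 and 6.09 times in D1. Gnal had 3.88 times in D2 and 4.51 times in D1, and Arpp21 had 3.87 times in D2 and 4.37 times in D1. The other 5 genes had medians between 2.38 and 3.06 times background in either cell type. Their lowest libraries came close to the background itself, at 1.23 times for Arpp19 and 1.26 times for Prkar2b. At that density, counts of the size that any stretch of the same length received make up a large share of the counts of Arpp19 and the PKA genes.

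**Figure D1:**
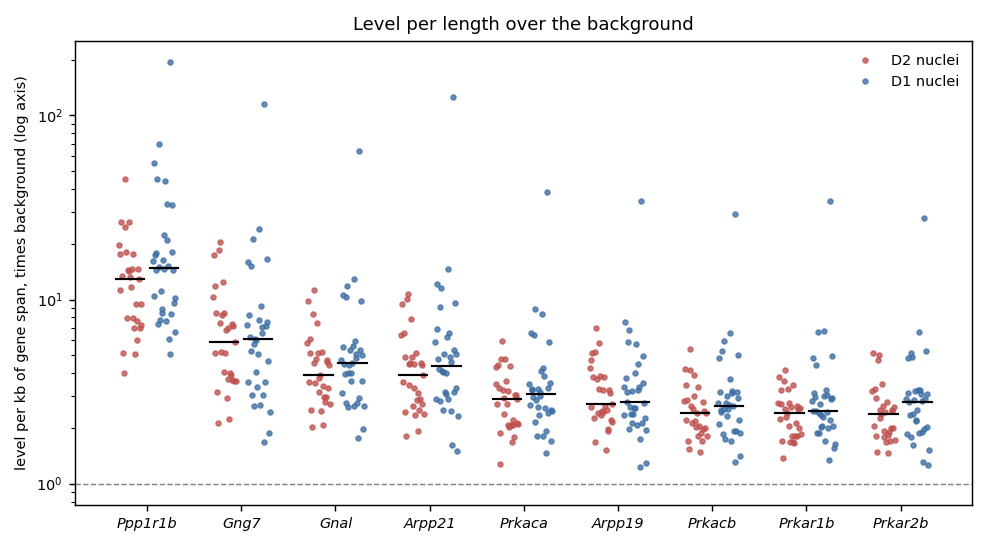
Level of each gene per kb of gene span, divided by the background density of the same library, on a log axis. Points are libraries, left D2 (29) and right D1 (32) for each gene, bars are medians and the dashed line marks the background. Ppp1r1b stands highest, and the topmost D1 point of every gene, up to 195.6 times for Ppp1r1b, is D1 SS replicate 1.

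Some of these genes share ground with other genes, and as the strand setting of the counting is not given their values are uncertain. Of the 9393 bases of Ppp1r1b, 7079 overlap the noncoding gene 1700003D09Rik on the opposite strand, which had a median count of 663 per library beside 1105 for Ppp1r1b. Gnal overlaps Mppe1 over 1750 bases and Arpp21 overlaps the long noncoding gene 2900079G21Rik over 1662 bases, both on the opposite strand. Mir128-2 inside Arpp21 had a median count of 3.

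The level of every gene in every group is given in CPM after TMM scaling, which evens out composition between libraries. Gene coordinates are on GRCm38. Among the Golf subunits, Gnal, the alpha subunit (ENSMUSG00000024524.17, chr18:67088216-67226792, plus strand, 8.06% of the span exonic), had D2 medians of 327.1 in MM, 312.5 in MS, 241.5 in SM and 223.0 in SS. Its D1 medians were 300.8 in MM, 276.7 in MS, 308.8 in SM and 282.0 in SS. The group medians of Gnal lay closer together than its single libraries, which ran from 138.4 in D1 SM to 1315 in D1 SS. Gng7, the gamma subunit (ENSMUSG00000048240.14, chr10:80948624-81014945, minus strand, 5.71% exonic), had D2 medians of 258.6 in MM, 254.3 in MS, 144.6 in SM and 127.5 in SS. Its D1 medians were 220.8 in MM, 159.4 in MS, 204.1 in SM and 182.4 in SS. In D2 nuclei both subunit genes had their 2 highest group medians after a morphine history, though all 28 pairs of groups overlapped in range for each gene. Overlap was the rule for all genes, since in none of 14 comparisons did over 0.334% of them lie wholly on one side.

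Ppp1r1b (ENSMUSG00000061718.12, chr11:98348404-98357796, plus strand, 31.2% exonic) had D2 medians of 57.8 in MM, 71.3 in MS, 48.3 in SM and 34.4 in SS. Its D1 medians were 70.7 in MM, 48.5 in MS, 76.3 in SM and 56.7 in SS. The order of treatments thus differed between the cell types, with MS highest in D2 and SM highest in D1. Arpp19, a small phosphatase inhibitor (ENSMUSG00000007656.13, chr9:75037614-75060313, plus strand), had D2 medians of 39.4 in MM, 39.5 in MS, 31.0 in SM and 24.6 in SS. Its D1 medians were 34.9 in MM, 27.8 in MS, 33.9 in SM and 27.0 in SS. Arpp21, which encodes a calmodulin regulator and is rich in the striatum (ENSMUSG00000032503.18, chr9:112065091-112235938, minus strand), had D2 medians of 380.9 in MM, 368.0 in MS, 290.2 in SM and 260.5 in SS. Its D1 medians were 462.3 in MM, 320.8 in MS, 364.2 in SM and 334.3 in SS. All 28 pairs of groups overlapped in range for each of these 3. In the pairs where all genes were counted, at most 0.334% of them lay wholly on one side.

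Prkar2b, the type II regulatory subunit that predominates in striatal neurons (ENSMUSG00000002997.15, chr12:31958476-32061296, minus strand), had D2 medians of 137.3 in MM, 122.4 in MS, 107.0 in SM and 109.2 in SS. Its D1 medians were 137.2 in MM, 119.3 in MS, 134.0 in SM and 118.1 in SS. Prkar1b, the neuronal type I regulatory subunit (ENSMUSG00000025855.13, chr5:139017306-139150001, minus strand), had group medians from 129.5 in D2 SM to 172.4 in D1 MM. The catalytic subunit gene Prkaca (ENSMUSG00000005469.10, chr8:83972993-83996443, plus strand) had group medians from 24.9 in D2 SS to 36.8 in D2 MS. Prkacb (ENSMUSG00000005034.15, chr3:146729574-146812990, minus strand) had group medians from 87.3 in D2 SS to 107.9 in D2 MS. The ranges of all 28 pairs of groups overlapped for each of the 4 subunit genes. Nearly all genes overlapped too in the pairs where all genes were counted, at most 0.334% lying wholly on one side. Within a library Prkaca lay above Prkacb per kb in 57 of 61, with a median ratio of 1.17, while the ratio of Prkar1b to Prkar2b had a median of 1.00 and ran from 0.740 to 1.38. These ratios include the background that both genes of a pair share. With the count predicted by the background taken off, the median of Prkaca to Prkacb was 1.31. That of Prkar1b to Prkar2b was then 1.00, with a range from 0.622 to 2.13.

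**Figure D2:**
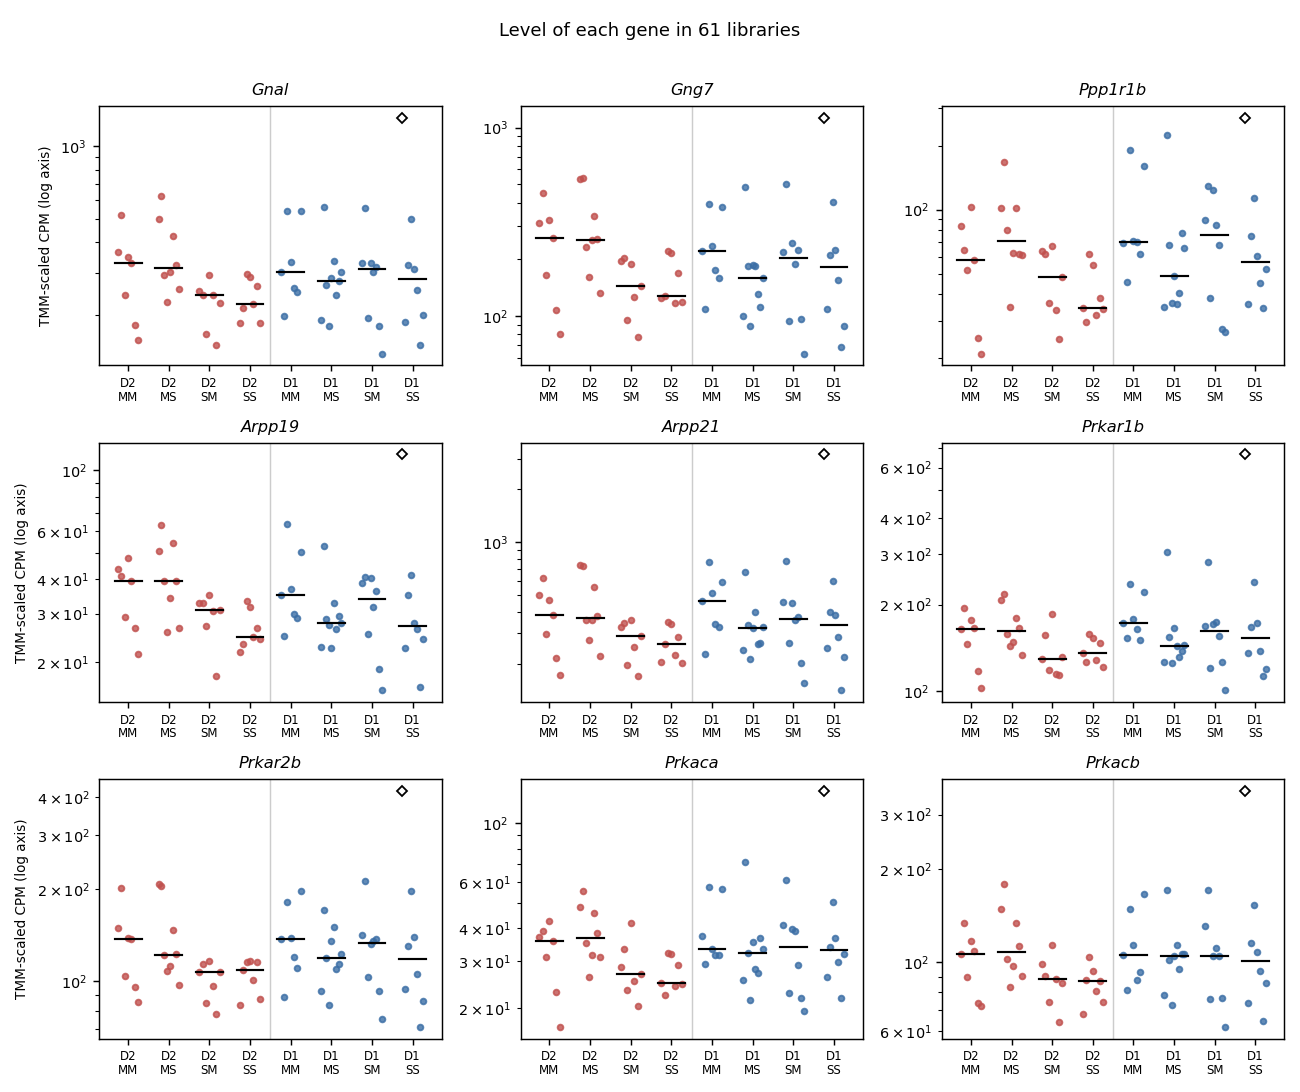
TMM-scaled CPM of each gene in each library, on log axes, by group, with D2 groups in red and D1 groups in blue and a bar at each group median. The open diamond is D1 SS replicate 1, the highest library of all 61 for each of the 9 genes, and the ranges of all groups overlap.

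The 9 genes followed the background of their library. Over the 61 libraries, Pearson's r between the log2 level and the log2 background density ran from -0.77 for Ppp1r1b to -0.96 for Prkar1b. These are descriptions, since level and density come from the same libraries and the density weighs on every count, and without D1 SS replicate 1 they ran from -0.84 for Arpp19 to -0.97 for Prkar1b. The genes also went with each other, with r between 0.83, for Ppp1r1b and Prkar2b, and 0.98, for Gnal and Prkacb, over all 36 pairs, and between 0.81 and 0.98 without D1 SS replicate 1. When the count predicted by the background was taken off each gene and the rest was rescaled to CPM, r between pairs ran from -0.28, for Arpp19 and Prkar1b, to 0.82, for Gnal and Prkacb, with a median of 0.45, both with and without that library. The tie of Gnal to Prkacb was the closest on both scales. The tie to the background then lay between -0.06 for Arpp19 and -0.65 for Arpp21, and without D1 SS replicate 1 between -0.20 for Arpp19 and -0.68 for Gng7. For Ppp1r1b it was -0.07 with that library and -0.26 without it, and for Prkacb -0.07 and -0.23.

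**Figure D3:**
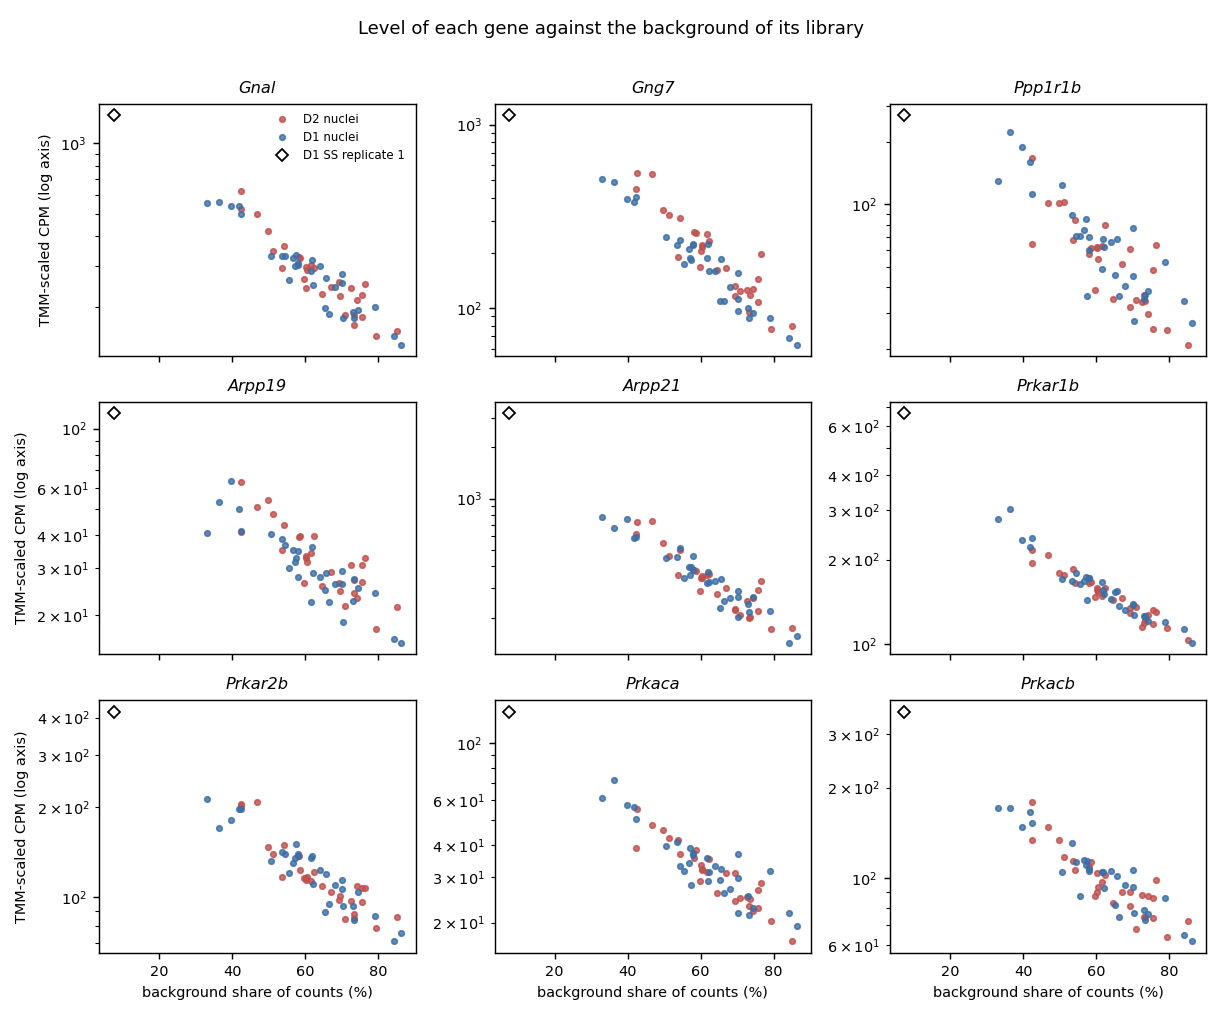
TMM-scaled CPM of each gene, on a log axis, against the share of the library's counts that the background accounts for, in percent. Each point is a library, and in all 9 panels the level is lower where the background share, 7.46% to 86.3%, is higher.

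Genes whose pattern was most like that of a member were found by Pearson's r of log2 levels over the 61 libraries, among 13492 genes whose mean log2 CPM was 3 or more. For Gnal they included Wasf1 and Adnp, with r of 0.99 each. For Gng7 they included Slc6a6 and Pde2a at 0.98, and for Ppp1r1b they were Fbxl16, Eno2 and Ddn at 0.98. Arpp19 had the lowest likeness, with Ivns1abp at 0.96. Arpp21 was closest to Unc79, Prkar1b to Galnt2, Prkar2b to Syn2, Prkaca to Dync1h1 and Prkacb to Nedd4, with r of 0.98 to 0.99. No member stood among the first 3 genes of another. Without D1 SS replicate 1 the gene closest to Gng7 was Gnao1, which encodes another G protein alpha subunit, at 0.99.

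Among the pairwise comparisons within a cell type, the median difference of the 9 genes lay furthest from 0 in D2 nuclei between a morphine history with a saline challenge and saline throughout, MS against SS. This comparison asks what remained of the daily morphine after withdrawal. All 9 genes stood higher in D2 MS. Their median log2 difference was 0.63, while 42.2% of all 41125 genes tested stood higher, with a median of -0.05. Of the 10225 tested genes at or over 2 times background, as all 9 are, 64.9% stood higher, with a median of 0.21. By edgeR's quasi-likelihood test with Benjamini-Hochberg adjustment none of the 9 passed, and 0 of all genes did, so the share called was 0%. All 9 had an unadjusted p under 0.05, as did 13164 genes in all. DESeq2 called 8 of the 9, against 19.8% of the genes to which it gave an adjusted p, and edgeR with the replicate number as a block called 9, against 20.9% of all genes tested.

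Gnal in D2 MS had 227.0, 312.5 and 622.9 CPM as lowest, median and highest of 8 libraries, against 185.1, 223.0 and 295.5 in the 7 D2 SS libraries. Of the MS libraries, 5 lay above the highest SS library and the others within its range. The log2 difference of Gnal was 0.63 ± 0.22 (SE, edgeR adjusted p = 0.0729), a ratio of 1.55. Gng7 had 132.4, 254.3 and 542.4 in D2 MS, against 116.8, 127.5 and 221.3 in D2 SS, with 6 of 8 MS libraries above all of SS. Its log2 difference was 0.97 ± 0.33 (SE, edgeR adjusted p = 0.0718), a ratio of 1.96. Both Golf subunit genes thus overlapped between groups at the low end of MS only. In bulk nuclei, a change in the share of a cell type and a change in RNA per cell cannot be told apart.

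Ppp1r1b showed the widest difference of the 9. It had 34.8, 71.3 and 168.1 CPM as lowest, median and highest in D2 MS, against 29.7, 34.4 and 62.1 in D2 SS. Of the 8 MS libraries 5 lay above every SS library, and all 8 above the SS median. The log2 difference was 1.03 ± 0.32 (SE, edgeR adjusted p = 0.0713), a ratio of 2.04. Arpp19 had 25.7, 39.5 and 63.1 in D2 MS, against 21.7, 24.6 and 33.3 in D2 SS, and differed by 0.64 ± 0.18 (SE, edgeR adjusted p = 0.0713). Of its MS libraries 6 lay above the whole SS group. Arpp21 had 221.5, 368.0 and 741.8 in D2 MS, against 201.9, 260.5 and 350.2 in D2 SS, and differed by 0.75 ± 0.26 (SE, edgeR adjusted p = 0.0729), again with 6 of 8 MS libraries above all of SS.

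The PKA genes had estimates from 0.27 to 0.51, and whether these differ from those of the other genes was not tested. Prkaca, the main catalytic subunit, had 26.0, 36.8 and 55.6 CPM as lowest, median and highest in D2 MS, against 22.3, 24.9 and 32.2 in D2 SS, a log2 difference of 0.51 ± 0.17 (SE, edgeR adjusted p = 0.0714). Prkacb had 83.0, 107.9 and 178.8 in D2 MS, against 68.0, 87.3 and 104.2 in D2 SS, a difference of 0.46 ± 0.14 (SE, edgeR adjusted p = 0.0713). Of the MS libraries 5 lay above the SS range for Prkaca and 4 for Prkacb. Prkar2b differed by 0.42 ± 0.16 (SE, edgeR adjusted p = 0.085) and Prkar1b by 0.27 ± 0.11 (SE, edgeR adjusted p = 0.0995). For each of these regulatory subunits 5 of 8 MS libraries lay above all of SS.

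The background moved with this comparison, its share having a median of 60.1% in D2 MS, from 42.5% to 69.3%, against 69.4% in D2 SS, from 59.8% to 74.3%. With the log2 background density as a covariate the 9 log2 differences shrank to between 0.03 for Prkar1b and 0.46 for Ppp1r1b, with edgeR adjusted p from 0.297 to 0.719. After subtraction of the background, an alternative chosen after the data were seen, they lay between -0.02 for Prkar1b and 0.55 for Gng7 and Ppp1r1b, with edgeR adjusted p from 0.138 to 0.922. The levels that follow are background-subtracted CPM, rescaled to the total that remains and, unlike in that fit, not TMM-scaled. Ppp1r1b had 90.9, 168.0 and 234.1 CPM in D2 MS, against 90.9, 115.9 and 148.5 in D2 SS, with 6 of 8 MS libraries above the SS range. Gnal had 485.9, 648.6 and 808.6 in D2 MS, against 460.1, 555.7 and 597.5 in D2 SS, with 7 of 8 above. Prkar1b no longer differed in median, at 237.3 in D2 MS and 238.4 in D2 SS.

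The levels of several marker lists moved with it too. The summed unscaled CPM of 5 measured D2 projection neuron markers ran from 819.2 to 2420 in D2 MS, against 696.6 to 1316 in D2 SS. Those of 6 astrocyte markers ran from 106.7 to 174.4 in D2 MS and from 161.9 to 199.4 in D2 SS, and those of 6 microglia markers from 111.4 to 162.7 in D2 MS and from 150.3 to 176.9 in D2 SS. Those of 5 endothelial markers ran from 201.1 to 330.0 in D2 MS and from 300.1 to 363.3 in D2 SS, and those of 6 cortical neuron markers from 203.9 to 298.3 in D2 MS and from 271.3 to 319.3 in D2 SS. Those of 7 D1 projection neuron markers ran from 140.2 to 174.0 in D2 MS and from 144.9 to 163.3 in D2 SS. Sums of 7 interneuron markers ran from 120.2 to 201.3 in D2 MS and from 172.6 to 204.8 in D2 SS. Sums of 6 oligodendrocyte markers ran from 145.9 to 181.9 in D2 MS and from 157.0 to 189.0 in D2 SS. Of the astrocyte, microglia, endothelial and cortical markers 0 stood at 2 times background or more, and none of them was at 0 in all libraries. Their part and that of the background in the differences of the 9 genes were not tested.

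In D1 nuclei the same comparison rested on D1 SS replicate 1. All 9 genes stood lower in D1 MS than in D1 SS with all libraries, with log2 differences from -0.99 to -0.27, and all 9 stood higher, by 0.01 to 0.24, without that library. Arpp21 had 215.1, 320.8 and 675.4 CPM as lowest, median and highest in D1 MS, against 141.9, 334.3 and 3174 in D1 SS, where the next highest library had 598.0. Its log2 difference was -0.99 ± 0.44 (SE, edgeR adjusted p = 0.824) with all libraries and 0.05 ± 0.31 (SE, edgeR adjusted p = 1.00) without D1 SS replicate 1. Of all genes at or over 2 times background 68.1% stood lower with all libraries, with a median of -0.19. The share called was 0%, and 1 of the 9 genes, Arpp21, had an unadjusted p under 0.05, as did 1101 genes in all. DESeq2 called 0 of the 9.

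Whether the effect of a morphine history differed between the cell types was tested as the D2 difference of MS against SS less the D1 difference. All 9 estimates were positive, with a median of 1.00, and 45.1% of all 42870 genes were positive, with a median of -0.06. Of the 10867 genes at or over 2 times background 64.2% were positive, with a median of 0.38. The largest were 1.77 ± 0.55 for Arpp21 and 1.69 ± 0.60 for Gng7 (SE, edgeR adjusted p = 0.149 each). The smallest was 0.74 ± 0.32 for Prkar1b (SE, edgeR adjusted p = 0.156). None of the 9 was called by edgeR, and 0% of all genes were, while all 9 had an unadjusted p under 0.05 and DESeq2 called 8 of 9, against 16.2% of its genes. The number of all genes with such an unadjusted p is not given here, so that count does not set the 9 apart. Without D1 SS replicate 1 the estimate of Arpp21 was 0.70 ± 0.42 (SE, edgeR adjusted p = 0.647), and all 9 ran from 0.25 to 0.96, with edgeR adjusted p from 0.647 to 0.697. With the background as a covariate they ran from 0.02 to 0.40, with edgeR adjusted p of 0.846 or more.

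**Figure D4:**
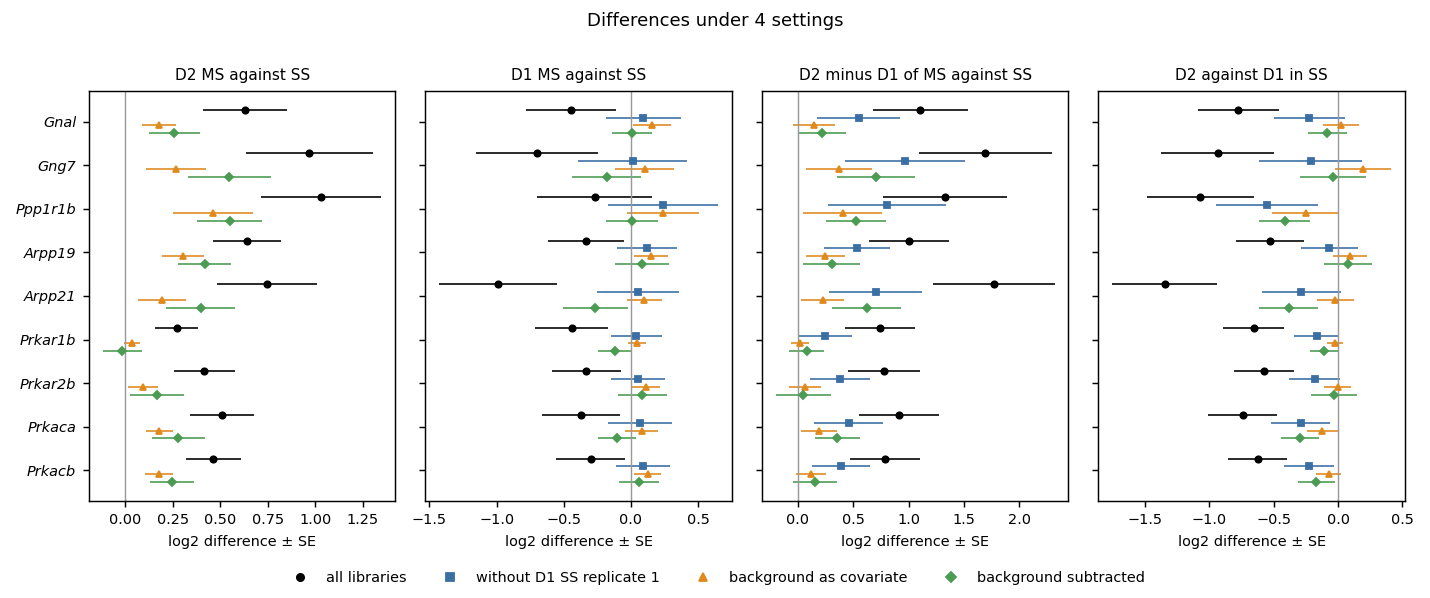
Log2 differences with standard errors for the 9 genes in 4 comparisons, under 4 settings of the edgeR fit. All 9 points lie above 0 for D2 MS against SS with all libraries and nearer 0 with the background as a covariate, and all 9 D1 differences change sign without D1 SS replicate 1, which enters no D2 fit.

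After a saline history, the morphine challenge, SM against SS, gave small differences of both signs in D2 nuclei. Of the 9 genes 5 stood higher and 4 lower, with a median log2 difference of 0.04 and a range from -0.08 to 0.23, the last for Ppp1r1b with 0.23 ± 0.32 (SE, edgeR adjusted p = 1.00). Ppp1r1b had 24.6, 48.3 and 67.3 CPM in D2 SM, against 29.7, 34.4 and 62.1 in D2 SS, so the groups overlapped widely. In D1 nuclei all 9 stood lower in SM with all libraries, with log2 differences from -0.83 to -0.22, and all 9 higher without D1 SS replicate 1, by 0.05 to 0.30. Arpp21 gave the lowest value, -0.83 ± 0.45 (SE, edgeR adjusted p = 0.955), and 0.22 ± 0.31 (SE, edgeR adjusted p = 1.00) without that library. No gene at all passed edgeR's test in either cell type, 0% of those tested, and an unadjusted p under 0.05 was held by 1333 genes in D2 and 770 in D1. Of the 9, 0 had such a p in D2 or D1. DESeq2 called 0 of the 9 in both. The D2 difference less the D1 difference ran from 0.22 to 0.89 with all libraries and from -0.26 to 0.02 without D1 SS replicate 1, with none called by edgeR (0% of all genes) or DESeq2 and 0 of 9 at an unadjusted p under 0.05.

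Where both the history and the challenge were morphine, MM against SS, the D2 values were of 1 sign. All 9 genes stood higher in D2 MM, with log2 differences from 0.12 to 0.61 and a median of 0.35, beside 44.2% of all genes higher and a median of -0.03. Of genes at or over 2 times background 62.7% stood higher, with a median of 0.10. Gng7 had 80.2, 258.6 and 447.8 CPM in D2 MM, against 116.8, 127.5 and 221.3 in D2 SS, a log2 difference of 0.61 ± 0.34 (SE, edgeR adjusted p = 0.404). The MM libraries of Gng7 spread past those of SS at both ends. Arpp19 had 21.4, 39.4 and 47.8 in D2 MM, against 21.7, 24.6 and 33.3 in D2 SS, a difference of 0.41 ± 0.18 (SE, edgeR adjusted p = 0.367). In D1 nuclei 7 of 9 genes stood lower in MM with all libraries and all 9 stood higher, by 0.19 to 0.68, without D1 SS replicate 1. Ppp1r1b gave the highest D1 value on both counts, at 0.17 ± 0.45 (SE, edgeR adjusted p = 1.00) and 0.68 ± 0.43 (SE, edgeR adjusted p = 0.665). None of the 9 was called by edgeR or DESeq2 in either cell type, with 0% of all genes called by edgeR, and 1 of 9 in D2 and 0 of 9 in D1 had an unadjusted p under 0.05. Those counts were not set against all genes here and do not set the 9 apart. The D2 difference less the D1 difference ran from 0.35 to 1.07 with all libraries and from -0.17 to 0.23 without D1 SS replicate 1, again with none called by either tool, 0% of all genes called by edgeR and 0 of 9 at an unadjusted p under 0.05. SM, MS and MM share their SS libraries within a cell type.

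After a morphine history, the morphine challenge against saline, MM against MS, gave estimates of opposite signs in the cell types. In D2 all 9 genes stood lower in MM, with log2 differences from -0.54 to -0.11, and in D1 all 9 stood higher, by 0.10 to 0.44. Most genes at or over 2 times background had the same signs, 74.5% of them lower in D2 MM and 74.2% higher in D1 MM. Ppp1r1b had 21, 57.8 and 102.7 CPM in D2 MM, against 34.8, 71.3 and 168.1 in D2 MS, a log2 difference of -0.54 ± 0.31 (SE, edgeR adjusted p = 0.973). In D1 it had 45.4, 70.7 and 190.1 in MM, against 34.9, 48.5 and 225.1 in MS, a difference of 0.44 ± 0.44 (SE, edgeR adjusted p = 0.988). Arpp21 in D1 had 227.5, 462.3 and 764.1 in MM, against 215.1, 320.8 and 675.4 in MS, a difference of 0.44 ± 0.45 (SE, edgeR adjusted p = 0.988). The groups overlapped in each case, and no difference exceeded the spread between libraries. The D2 difference less the D1 difference was negative for all 9 genes, from -0.98 to -0.30, and none was called (lowest edgeR adjusted p = 0.878). Neither edgeR, with 0% of all genes called, nor DESeq2 called any of the 9 in these 3 comparisons, and 0 of 9 had an unadjusted p under 0.05 in each. The background share had medians of 58.2% in D2 MM and 60.1% in D2 MS, and of 55.5% in D1 MM and 65.7% in D1 MS.

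Between histories under a morphine challenge, MM against SM, all 9 genes stood higher in both cell types, as did 65.7% of the genes at or over 2 times background in D2 and 77.4% in D1. In D2 the log2 differences ran from 0.15 to 0.70, with Gng7 highest. It had 80.2, 258.6 and 447.8 CPM in D2 MM, against 77.0, 144.6 and 203.5 in D2 SM, a difference of 0.70 ± 0.34 (SE, edgeR adjusted p = 0.608). Prkar2b had 85.7, 137.3 and 201.7 in D2 MM, against 78.5, 107.0 and 116.4 in D2 SM, a difference of 0.36 ± 0.17 (SE, edgeR adjusted p = 0.608). For both genes the lower MM libraries lay within the SM range. In D1 the 9 differences ran from 0.11 to 0.38. Whether the challenge acted differently by history, (MM less MS) less (SM less SS), gave 9 positive estimates in D1, from 0.42 to 1.27, or from 0.02 to 0.22 without D1 SS replicate 1, and 9 negative ones in D2, from -0.77 to -0.06. None of the 9 was called by edgeR or DESeq2 in these 4 comparisons, where edgeR called 0% of all genes, and 1 of 9 in D2 MM against SM and 0 of 9 in the other 3 had an unadjusted p under 0.05. The number of all genes with such a p is not given here, so these counts do not set the 9 apart.

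D2 and D1 nuclei differ in which receptor feeds the cascade, and the comparison of the 2 cell types asks whether its shared parts differ in level. Each cell type came from mice with its own Cre driver. In every comparison between them, cell type and driver therefore cannot be told apart. In SS all 9 genes stood lower in D2, with a median log2 difference of -0.74, while 53.7% of all 42870 genes stood higher, with a median of 0.03. Of genes at or over 2 times background 64.0% stood lower, as the 9 did, with a median of -0.31. The largest difference was that of Arpp21, with 201.9, 260.5 and 350.2 CPM in D2 SS and 141.9, 334.3 and 3174 in D1 SS, a log2 difference of -1.35 ± 0.41 (SE, edgeR adjusted p = 0.0983). The D2 libraries lay within the D1 range for Arpp21. Ppp1r1b had 29.7, 34.4 and 62.1 in D2 SS and 34.3, 56.7 and 270.5 in D1 SS, a difference of -1.07 ± 0.42 (SE, edgeR adjusted p = 0.102). Of its 7 D2 libraries 3 lay below every D1 library. The smallest was -0.53 ± 0.26 for Arpp19 (SE, edgeR adjusted p = 0.175).

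None of the 9 was called by edgeR in SS, against 0.0467% of all genes, although all 9 had an unadjusted p under 0.05. How many of all genes had such a p is not given here, so that count does not set the 9 apart. DESeq2 called 8 of 9, against 24.3% of its genes, and edgeR with the DESeq2 size factors called 8 of 9, against 19.2%. Without D1 SS replicate 1 Arpp21 differed by -0.29 ± 0.31 and Ppp1r1b by -0.55 ± 0.40 (SE), and all 9 differences lay between -0.55 and -0.07, with edgeR adjusted p from 0.924 to 0.965. The background share had a median of 69.4% in D2 SS and 62.2% in D1 SS, and its part in the difference was not tested. After subtraction of the background the differences in the edgeR fit lay between -0.41 for Ppp1r1b and 0.08 for Arpp19. In background-subtracted CPM, without TMM scaling, D1 SS replicate 1 itself fell inside the range of the other libraries for 8 of the 9 genes. The exception was Arpp21, at 1318 CPM where the other 60 libraries ran from 357.2 to 1036.

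Over all treatments the 9 genes stood lower in D2 with all libraries, from -0.54 to -0.06. Ppp1r1b had the largest mean difference, -0.54 ± 0.20 (SE, edgeR adjusted p = 0.381), which was -0.41 ± 0.19 (SE, edgeR adjusted p = 0.711) without D1 SS replicate 1. Arpp19 had the smallest, -0.06 ± 0.13 (SE, edgeR adjusted p = 0.828), which was 0.06 ± 0.11 (SE, edgeR adjusted p = 0.894) without D1 SS replicate 1. Of genes at or over 2 times background 69.6% stood lower. None of the 9 was called, against 0.301% of all genes, and 4 of 9 had an unadjusted p under 0.05, a count not set against all genes here. In MS the sign turned, with all 9 genes higher in D2 by 0.09 to 0.76, as were 66.6% of genes at or over 2 times background. Gng7 led there, with 132.4, 254.3 and 542.4 CPM in D2 MS and 88.3, 159.4 and 486.0 in D1 MS, a difference of 0.76 ± 0.40 (SE, edgeR adjusted p = 0.999). In MM 8 of 9 and in SM 9 of 9 stood lower in D2, with ranges from -0.72 to 0.02 and from -0.61 to -0.06. Of the 9, edgeR and DESeq2 called 0 in MS, MM and SM, against 0.0746%, 0.056% and 0.0303% of all genes by edgeR, and 0 of 9 had an unadjusted p under 0.05 in each. DESeq2 also called 0 of the 9 in the mean over treatments.

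**Figure D5:**
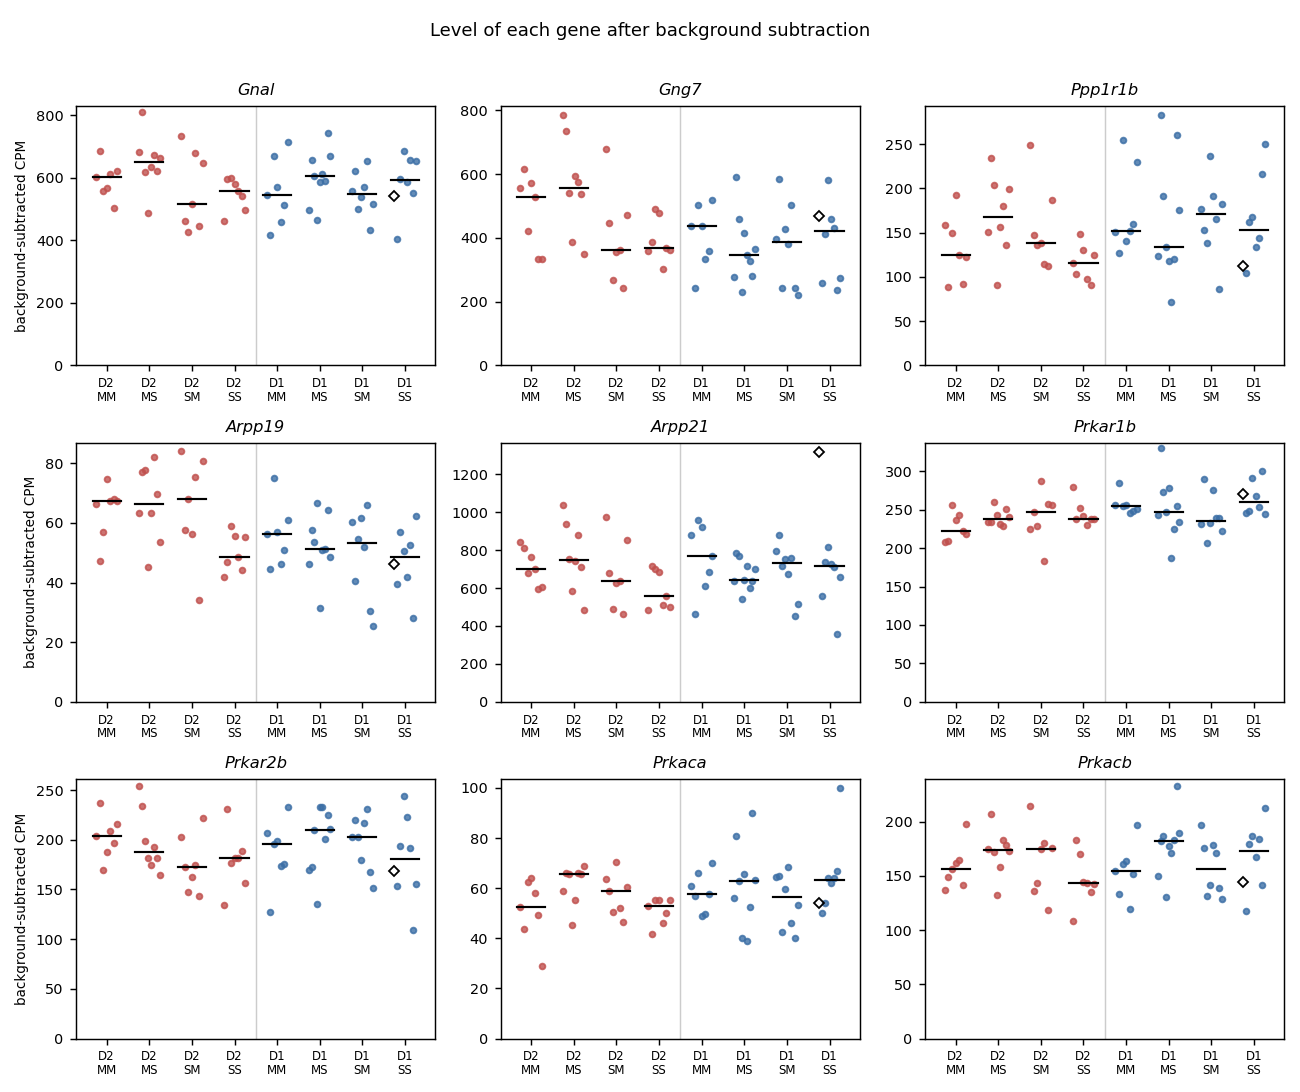
CPM of each gene after subtraction of the background of its library, on linear axes from 0, by group, with D2 groups in red, D1 groups in blue and a bar at each median. D1 SS replicate 1, the open diamond, stands apart for Arpp21, at 1318, and for none of the other 8 genes.

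After subtraction, the spread over all libraries differed from gene to gene. Gnal ran from 424.8 to 808.6 CPM in D2 and from 404.0 to 742.8 in D1. By the coefficient of variation over the 61 libraries Prkar1b varied least at 10.5%, followed by Gnal at 15.2% and Prkacb at 16.3%, while Gng7 at 31.1% and Ppp1r1b at 31.5% varied most. Median levels were 445.6 in D2 and 387.7 in D1 for Gng7, 136.3 in D2 and 156.3 in D1 for Ppp1r1b, and 63.4 in D2 and 51.5 in D1 for Arpp19. In the edgeR fit after subtraction, which adds TMM scaling, the mean log2 difference of Arpp19 over treatments was 0.24 ± 0.09 (SE, edgeR adjusted p = 0.359). Within a library the ratio of Gng7 to Gnal per kb had a median of 1.67 in D2, above 1 in 29 of 29 libraries, and 1.45 in D1, above 1 in 28 of 32.

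Of 46 other genes of the cascade, chosen as a list of receptors, G protein subunits, kinases, anchoring proteins and phosphatases, 41 stood higher and 5 lower in D2 MS against SS, with a median log2 difference of 0.52, and edgeR called 0, though 36 had an unadjusted p under 0.05, while DESeq2 called 29, all higher. Over all genes edgeR called 0% and DESeq2 19.8%, and 64.9% of genes at or over 2 times background stood higher. The count of all genes with an unadjusted p under 0.05 is the one given above for this comparison. Ensa, a relative of Arpp19, differed by 0.83 ± 0.22 (SE), Adcy5, the adenylyl cyclase that Golf drives, by 1.03 ± 0.37 (SE), and Ppp1ca, a catalytic subunit of protein phosphatase 1, by 0.70 ± 0.22 (SE), with edgeR adjusted p from 0.0713 to 0.0744. Prkar1a, a regulatory subunit of most tissues, differed by 0.70 ± 0.21 (SE, edgeR adjusted p = 0.0713), Ppp3ca, the calcineurin that acts against PKA on DARPP-32, by 0.66 ± 0.24 (SE, edgeR adjusted p = 0.078) and Gnb1 by 0.31 ± 0.11 (SE, edgeR adjusted p = 0.0743). Gnas, the alpha subunit that replaces Golf elsewhere, differed by 0.31 ± 0.13 (SE, edgeR adjusted p = 0.0959) and Prkar2a by -0.01 ± 0.06 (SE, edgeR adjusted p = 0.954). Gnas at a median of 1.73 times background and Prkar2a at 1.82 times lay closer to it than any member did, as did Gnb1. The median level of the other 6 was 10.8 times background for Adcy5, 5.83 for Ensa, 5.72 for Ppp1ca, 5.21 for Prkar1a, 4.16 for Ppp3ca and 2.24 for Gnb1. Of the 46, edgeR called 0 in either direction in the 12 comparisons within a cell type and the 4 differences between the cell types' effects.

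Between the cell types over all treatments 5 of the 46 were called by edgeR, 2 higher and 3 lower in D2, against 0.301% of all genes. Drd2 with 3.31 ± 0.17 and Adora2a with 1.41 ± 0.14 (SE) were higher, and Drd1 with -2.67 ± 0.18, the muscarinic receptor gene Chrm4 with -1.77 ± 0.21 and the beta subunit gene Gnb4 with -0.50 ± 0.09 (SE) were lower, with edgeR adjusted p of at most 0.00135. All 5 were also called without D1 SS replicate 1, with log2 differences of 3.40 for Drd2, 1.47 for Adora2a, -2.52 for Drd1, -1.65 for Chrm4 and -0.41 for Gnb4. Within single treatments, where edgeR called from 0.0303% to 0.0746% of all genes, the called genes were Drd2, higher, and Drd1, lower, in all 4, with Adora2a, higher, in MM and MS and Chrm4, lower, in SS. Without D1 SS replicate 1 Chrm4 was called in MM and SM and not in SS. The called genes of the cascade were thus receptors and Gnb4, and none of the 9 members.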

How the data were processed

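The 61 libraries of nuclear RNA, in 8 groups, come from a strand-specific kit for total RNA, per the labels' protocols. The authors deposited a table of counts per gene and a table of FPKM values. The submitters' processing notes name featureCounts, DESeq2 and mm10; for the aligner and the strand setting the sources used here give nothing. In the deposited FPKM the gene length equalled the whole gene span for 54281 of 54281 identifiers compared (relative tolerance 1e-06), so introns were part of the length. Of 55401 identifiers, 54349 matched a symbol with their version and 792 without.

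Counts were tested with edgeR 4.0.16 in R 4.3.3 (TMM scaling, filterByExpr, robust quasi-likelihood fit), in separate D1 and D2 fits and in a joint fit for comparisons across cell types, over 21 comparisons. Benjamini-Hochberg adjustment ran over all genes tested, 41083 (D1), 41125 (D2) and 42870 (joint) in number, with calls at 0.05. Total counts ran from 11518606 to 26108954 per library. On simulated data with 200 changed genes, the D2 MS against SS fit recovered 67% of 1.5-fold and 89% of 2-fold changes, D1 MM against MS 30% and 74%, and D2 against D1 in SS 44% and 84%. The simulated counts were drawn independently for each gene and held no background shared by the genes of a library. These rates therefore do not say what the fits to the real libraries could recover. No pair of libraries within a group shared over 90% of their counts.

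The background was the count density over 1435 olfactory and vomeronasal receptor genes. Background-subtracted CPM are what is left after the count predicted from gene span is removed, rescaled to the total that remains. Alternatives were DESeq2 1.42.0, its size factors in edgeR, no filter, the replicate number as a block, the log2 background density as a covariate, and omission of D1 SS replicate 1. Background subtraction in the edgeR fit, over genes at 2 times background or more, was chosen after seeing the data. Leaving out each of the other libraries in turn was not done, since groups held 7 to 9.

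All 9 genes were described in every comparison. Counts of unadjusted p under 0.05 that stand without a count over all genes do not set the 9 apart. Of 46 other cascade genes those called were named, and 8 were described whatever their result. The 3 genes most like each member were taken by correlation, leaving out predicted, ribosomal and mitochondrial symbols, and some of them are not reported here. The genes, lists and tests were chosen with earlier results of these data known.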

Additional observations from a re-analysis of the deposited data

Results flagged for a closer look

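Of 72 combinations of gene and group, 20 held a library whose gap to the nearest other, as a share of the group's range, passed Dixon's 95% critical value. Chance gives about 1 in 20 such groups, and the genes share their libraries, so the 20 are not separate events. All lay in D1 groups and at the high end. Values are TMM-scaled CPM.

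D1 SS replicate 1 stood apart for all 9 genes, with 1315 for Gnal and 1127 for Gng7, with 270.5 for Ppp1r1b, 114.1 for Arpp19 and 3174 for Arpp21, and with 666.6 for Prkar1b, 419.0 for Prkar2b, 132.5 for Prkaca and 357.4 for Prkacb. Its background share of 7.46% was the lowest of the 61 libraries. D1 MS replicate 2 stood apart for 8 genes, all but Prkar2b, with 561.9 for Gnal, 486.0 for Gng7, 225.1 for Ppp1r1b, 53.1 for Arpp19, 675.4 for Arpp21, 304.4 for Prkar1b, 71.6 for Prkaca and 171.5 for Prkacb. D1 SM replicate 2 stood apart for 3 genes, with 557.0 for Gnal, 502.4 for Gng7 and 280.4 for Prkar1b. These libraries held the lowest background share of their groups, 36.4% in D1 MS and 33.1% in D1 SM. The part of the background in these values was not tested.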

How the results depend on the processing

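The count of members called was 0 in all 21 comparisons by edgeR and rose in 3 of them under other settings. In D2 MS against SS DESeq2 called 8 of 9 members (19.8% of genes with an adjusted p) and the fit with the replicate block 9 of 9 (20.9% of all genes). In D2 against D1 in SS both DESeq2 (24.3% of genes with an adjusted p) and edgeR with the DESeq2 size factors (19.2% of all genes) called 8. In the D2 less D1 difference of MS against SS DESeq2 called 8 (16.2% of genes with an adjusted p). Without the filter, with the background covariate, with background subtraction and without D1 SS replicate 1 the count stayed at 0 wherever these were run.

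Without D1 SS replicate 1, signs turned for all 9 members in D1 MS against SS and D1 SM against SS, for 7 in D1 MM against SS, for 7 and 4 in the D2 less D1 differences of SM against SS and MM against SS, and for 2 in D2 against D1 over all treatments. Among the differences that the text gives for single genes, these turned. In D2 MS against SS Prkar1b was -0.015 on background subtraction. For Arpp19, D2 against D1 was 0.092 with the covariate and 0.078 on subtraction in SS, and 0.17, 0.24 and, without D1 SS replicate 1, 0.056 over all treatments. For Arpp21, D1 MS against SS was 0.042 by DESeq2, 0.10 with the covariate and 0.054 without that library, D1 SM against SS was 0.21, 0.10 and 0.22, and D1 MM against SS was 0.49, 0.25 and 0.50. For Ppp1r1b, D1 MM against SS was -0.11 by DESeq2 and with its size factors. Beyond the settings' own construction the cause was not tested. Background subtraction moved the median log2 difference of all genes kept by -0.58 to 0.45.

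Whether the replicate numbers pair the libraries was not settled. Same-numbered libraries had a median correlation of deviations of 0.02 in D1 and 0.01 in D2. Single pairs ran from -0.58 to 0.74 over 45 D1 pairs and from -0.42 to 0.51 over 42 D2 pairs. Across the cell types 29 such pairs had a median of 0.03 and ran from -0.54 to 0.62. Of 61 libraries 12 correlated best with their own number, and the count that chance would give was not computed. Depth was ample for the members, with 309 counts or more each in every library, while background limits the PKA genes and Arpp19.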
